A study of Mus musculus with 4 samples.

Results

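The genes described here are the cytokine receptors and the JAK-STAT pathway of T helper 2 (Th2) cells, as a list of 37 of the 50600 genes in the count tables. The list was matched by gene symbol and holds 22 receptor chains, 4 Janus kinases, 6 STAT factors, 4 feedback inhibitors and Gm44876, an antisense gene that lies opposite the interleukin-4 receptor gene Il4ra. RNA came from primary Th2 cells of C57BL/6NJ mice in 4 biological replicates of 1 group, with 1 donor identifier and a separate biosample for each. The labels give no age and no sex, and the file headers give 48 hours, within a time course that also covered Th1 cells. There was 1 group and no control, so levels were compared between genes within each library and between replicates.

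Most cytokine receptors of the JAK-STAT pathway have no enzyme activity of their own. A cytokine brings receptor chains together, and the Janus kinases bound to their tails then phosphorylate the receptor and the STAT factors that dock on it. STAT factors move to the nucleus and switch on target genes, among them those of the CIS and SOCS proteins, which bind receptors or kinases and damp the signal. In Th2 cells interleukin-4 acts through IL-4 receptor alpha, the common gamma chain, JAK1, JAK3 and STAT6, and interleukin-2 acts through STAT5. The list also holds receptors that work in other ways: the TGF-beta receptors are kinases themselves, and the receptors of interleukin-17, interleukin-18 and interleukin-33 signal through adaptor proteins.

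The libraries held 1785970 to 2271993 counts of read pairs, so 3 counts, the most that a count of 0 allows, correspond to 1.32 to 1.68 CPM (counts scaled to the library's total). Such limits cover counting error only. The 2 ribosomal RNA genes held 4.54%, 3.25%, 5.02% and 15.9% of all counts in replicates 1 to 4. Replicate 4 was also the smallest library. The part of ribosomal RNA in differences of level between replicates was not tested. T cell and Th2 markers were detected: 6 of 7 T cell markers and 5 of 5 Th2 markers reached 1 TPM (counts scaled by exon length and library) in every library, and Cd3e missed it in replicate 3. Of the other cell types, 0 of 2 CD8 T cell, 2 of 5 myeloid, 0 of 3 NK cell and 0 of 3 mast cell and basophil markers did. Over all protein-coding genes 21.8% did, and 46.8% of those that share exon bases with a gene on the other strand. The B cell gene Cd79a had 14, 8, 4 and 7 counts in replicates 1 to 4 and reached 1 TPM in every library. Itgam, Ncr1, Klrb1c, Mcpt8 and Fcer1a had 0 counts in all libraries. The summed level ranged from 192 to 209 TPM for the myeloid markers, nearly all of it Csf1r, with 1409, 1363, 1457 and 1066 counts. Csf1r shares 871 bp of exon with Hmgxb3 on the other strand, which had 16, 9, 4 and 9. Of the T cell sum of 196 to 238 TPM, Cd247 made up 168 on average, and it shares 3007 bp with Pou2f1, which had 330, 267, 331 and 180 counts against 1360, 1364, 1278 and 972 for Cd247. Cd3e, Gata3 and Ptgdr2 overlap such genes too. Gata3 had 44, 35, 21 and 20 counts, against 2300, 2218, 2625 and 2048 for Gm13256. Cd3e had 18, 20, 6 and 9, against 2351, 2067, 2361 and 1692 for Gm48719. Ptgdr2 went the other way, with 249, 263, 216 and 147 against 24, 7, 5 and 8 for Ccdc86. The part of cells of other types in the results was not tested. In bulk RNA, fewer cells that express a gene and less RNA per cell cannot be told apart.

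Counts were assigned by strand, and many genes share bases with a gene read from the other strand. Of the 36 genes other than Gm44876, 9 (25%) share exon bases with such a gene, against 22.1% of all protein-coding genes. The gene on the other strand is called the opposite gene here, and a level is always that of the counts assigned to the named gene. The source of the counts in an overlapping pair, own or opposite transcripts, was not tested, and whether the strand setting matches the library kit is not given in the sources used here. As for the RNA itself, the labels call the assay total RNA, while the library protocol they link to is named for polyA RNA, and which of them applies was not settled here. A level is therefore not a measure of the gene's mRNA.

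Bases of 3 opposite genes are shown because these genes hold far more counts than the pathway genes they overlap, as described further on. Each is written 5′ to 3′ as transcribed, on GRCm38 (mm10), from GENCODE transcripts whose exons match those of the count tables. For Gm44876 (antisense to Il4ra, minus strand, chr7:125571547-125571846) capitals mark the 44 bases opposite coding sequence of Il4ra, and the other 256 bases lie opposite an Il4ra exon that is neither coding nor annotated as UTR. The stretch of Gm17041 (minus strand, chr9:107300380-107300533) lies wholly opposite coding sequence of the feedback inhibitor gene Cish. The stretch of 1700084C06Rik (plus strand, chr9:21127840-21128039) lies wholly opposite an exon of the kinase gene Tyk2 that is neither coding nor annotated as UTR.
Gm44876: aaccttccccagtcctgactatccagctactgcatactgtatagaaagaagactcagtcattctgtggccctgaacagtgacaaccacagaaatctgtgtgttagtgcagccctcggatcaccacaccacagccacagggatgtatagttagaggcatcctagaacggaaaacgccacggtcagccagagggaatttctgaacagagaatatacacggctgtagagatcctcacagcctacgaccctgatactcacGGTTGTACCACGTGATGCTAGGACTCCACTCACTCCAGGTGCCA
Gm17041: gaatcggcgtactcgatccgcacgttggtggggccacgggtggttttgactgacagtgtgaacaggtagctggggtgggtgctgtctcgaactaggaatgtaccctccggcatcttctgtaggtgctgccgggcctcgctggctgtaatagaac
1700084C06Rik: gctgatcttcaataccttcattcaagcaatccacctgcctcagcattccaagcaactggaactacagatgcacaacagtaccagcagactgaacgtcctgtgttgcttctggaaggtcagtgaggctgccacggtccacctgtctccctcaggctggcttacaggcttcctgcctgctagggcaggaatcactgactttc

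Of the 36 pathway genes, 17 (47.2%) reached 1 TPM in every library, against 21.8% of all protein-coding genes and 13.3% of all genes. They were 9 of 22 receptor chains, 2 of 4 kinases, 4 of 6 STAT factors and 2 of 4 feedback inhibitors. Among the 27 genes without an opposite gene 9 did (33.3%, against 14.7% of such protein-coding genes), and among the 9 with one 8 did (88.9%, against 46.8%). More than 3 counts in every library were found for 24 of 36 (66.7%, against 26.5% of protein-coding genes). At the other end, Il1rl1, Il10ra, Il10rb, Ifnar2, Socs2 and Socs3 had at most 3 counts in each library.

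The median level of the STAT factors was 3.73 ± 1.18 TPM, of the kinases 1.72 ± 0.399, of the feedback inhibitors 1.59 ± 0.384 and of the receptor chains 1.10 ± 0.256 (SD, n = 4 libraries). The median over all protein-coding genes was 0 in each library. The order of the classes rests on genes with an opposite gene: without them the kinase median was 13.1 TPM, the mean of Jak2 and Jak3, and the STAT median 0.8293. In the order of all 37 levels, 32 of 36 neighbouring genes had ranges over the libraries that overlapped. The 4 neighbours that did not overlap were Gm44876 above Jak2, Stat6 above Il6ra, Il6ra above Stat5a, and Il10ra above Socs2. Il10ra and Socs2 had 5 counts each over all libraries, so their order comes from exon length and is not read as a difference.

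**Figure D1:**
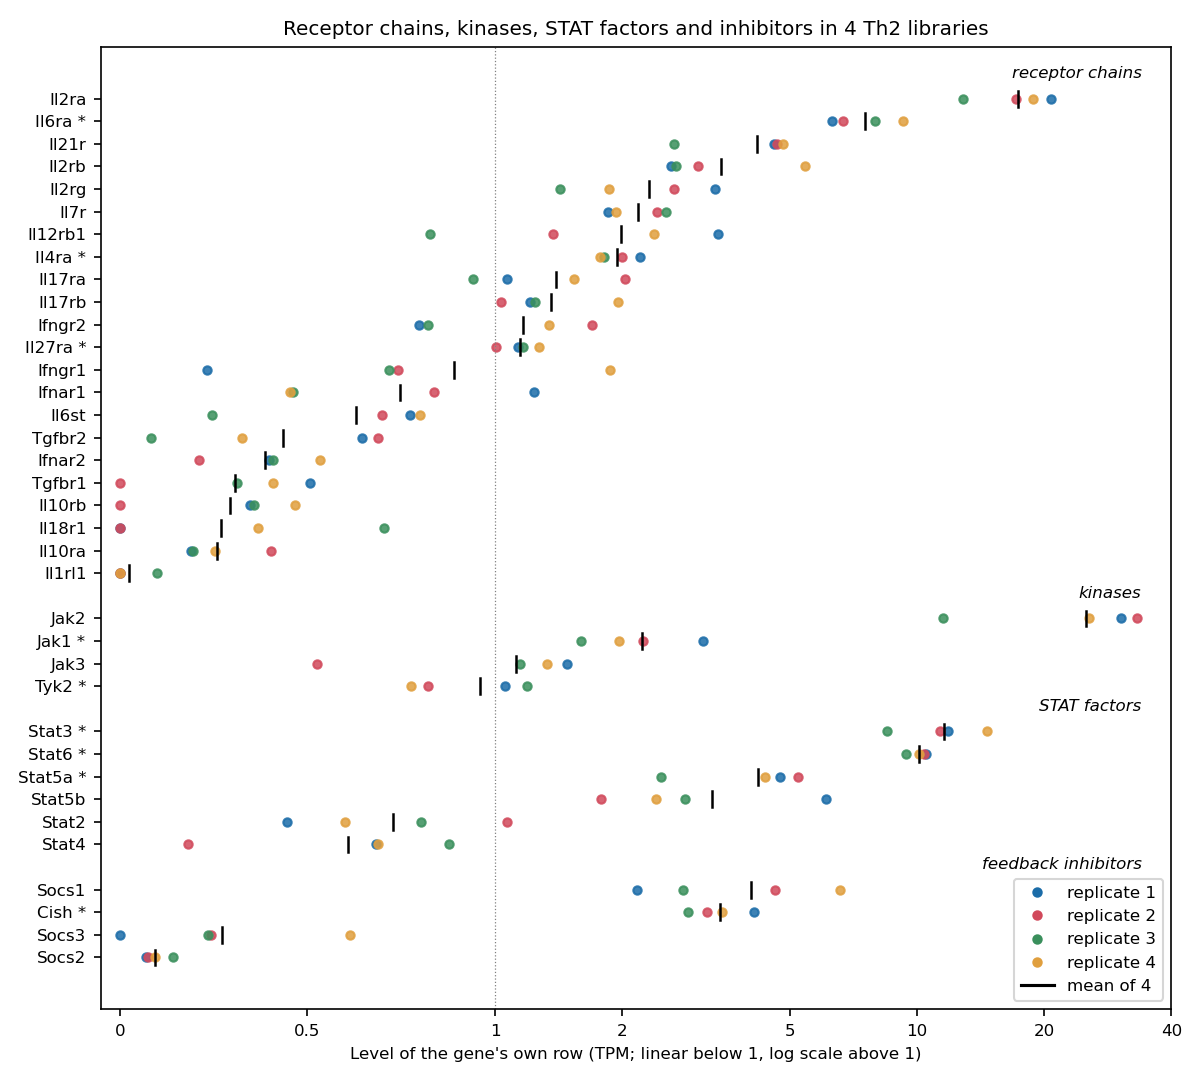
Level of each pathway gene in each of 4 Th2 libraries (TPM, linear below 1 and on a log scale above 1), grouped by role and ordered by the mean, which is the black bar. Stars mark genes with an opposite gene, the dotted line is 1 TPM, and Gm44876 (705 TPM on average) is not drawn. Jak2 (25.1 TPM) and Il2ra (17.4 TPM) have the highest means.

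Among the receptor chains, Il2ra was highest. It encodes the alpha chain of the interleukin-2 receptor (CD25), which gives that receptor its high affinity and marks activated T cells, and lies on chromosome 2 (11642807 to 11693193). It had 179, 139, 108 and 121 counts in replicates 1 to 4, or 20.7, 17.1, 12.9 and 18.8 TPM, with no opposite gene. Il2rb, the beta chain shared with interleukin-15, had 11, 12, 11 and 17 counts, and 3.44 ± 1.33 TPM on average (SD, n = 4). Replicate 4 was highest for Il2rb and the other 3 libraries lay close together. The alpha chain was above the beta chain in 4 of 4 libraries, with a log2 ratio of TPM + 1 of 2.07 ± 0.409 (SD, n = 4, exact two-sided sign-flip permutation test, p = 0.125, the smallest p that 4 libraries allow).

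Most chains that pair with the common gamma chain could not be separated from it. Il2rg, the gamma chain itself, had 12, 9, 5 and 5 counts, or 3.32, 2.65, 1.42 and 1.86 TPM. It shares 728 bp of exon with Gm20489 on its own strand, where a read pair belongs to no single gene. Il4ra, which binds interleukin-4 and interleukin-13, had 20, 17, 16 and 12 counts and 1.95 ± 0.196 TPM, and Il7r, the receptor of the survival cytokine interleukin-7, had 9, 11, 12 and 7 counts and 2.19 ± 0.342 TPM (SD, n = 4). The ranges of these 3 genes overlapped. The log2 ratio of Il2rg was 0.14 ± 0.284 over Il4ra (exact p = 0.375), 0.028 ± 0.471 over Il7r (exact p = 0.75) and -0.41 ± 0.614 over Il2rb (exact p = 0.375), each smaller than its own spread. Il21r, the interleukin-21 receptor, had 23, 22, 13 and 18 counts and was above Il2rg in 4 of 4 libraries (log2 ratio 0.65 ± 0.272, SD, n = 4, exact p = 0.125).

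The 2 chains of the interleukin-6 receptor were far apart. Il6ra, the chain that binds the cytokine, had 82, 82, 101 and 90 counts and 7.53 ± 1.34 TPM, while Il6st, the signalling chain gp130, had 13, 11, 4 and 10 counts and 0.629 ± 0.260 TPM (SD, n = 4). Il6st was below Il6ra in 4 of 4 libraries, with a log2 ratio of -2.39 ± 0.362 (SD, n = 4, exact p = 0.125). Il6ra has an opposite gene, Gm42809, and Il6st has none.

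Il12rb1, Il27ra, Il18r1 and Il1rl1 bind cytokines that steer helper cell fate or amplify it. Il12rb1, the chain shared by the interleukin-12 and interleukin-23 receptors, had 21, 8, 5 and 11 counts, or 3.38, 1.37, 0.828 and 2.38 TPM, with replicate 1 highest. Il27ra, the interleukin-27 receptor, had 6, 5, 6 and 5 counts and 1.14 ± 0.108 TPM (SD, n = 4). Il12rb1 was higher than Il27ra in 3 of 4 libraries, by a log2 ratio of 0.40 ± 0.541, which is less than the spread (exact p = 0.375). Il18r1, a Th1 receptor, had 0, 0, 5 and 2 counts, and its neighbour Il1rl1, the interleukin-33 receptor of Th2 and mast cells, had 0, 0, 1 and 0. The log2 ratio of Il1rl1 over Il18r1 was -0.27 ± 0.322, smaller than its spread (SD, n = 4, exact p = 0.5).

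Of the interleukin-17 receptors, Il17ra, the shared chain, had 14, 25, 12 and 15 counts, and Il17rb, the chain that binds interleukin-25, had 5, 4, 5 and 6. Their mean levels were 1.39 ± 0.496 and 1.36 ± 0.406 TPM (SD, n = 4), and their log2 ratio was 0.013 ± 0.380 (SD, n = 4, exact p = 1). Replicate 2 alone put Il17ra above Il17rb.

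The interferon, interleukin-10 and TGF-beta receptors lay near the counting limit. Ifngr1 had 1, 3, 3 and 6 counts and Ifngr2, its partner in the interferon gamma receptor, 4, 8, 4 and 5, with a log2 ratio of -0.24 ± 0.431 (SD, n = 4, exact p = 0.375). Ifnar1 had 11, 7, 4 and 3 counts and Ifnar2, the other chain of the type I interferon receptor, 2, 1, 2 and 2. Summed over libraries, Ifnar1 was 2.02 times Ifnar2 per length (exact 95% interval 0.850 to 5.54, counting error only), so a difference was not detectable at this depth. Tgfbr2, which binds TGF-beta, had 8, 8, 1 and 3 counts and Tgfbr1, the kinase chain it recruits, 5, 0, 3 and 3, with a log2 ratio of 0.13 ± 0.449 (SD, n = 4, exact p = 0.75). Il10ra (1, 2, 1 and 1) and Il10rb (2, 0, 2 and 2) were both at or under 3 counts, so no ratio is read from them. Il10rb and Ifnar2 also share 569 and 315 bp of exon with Gm21970 on their own strand.

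Among the kinases Jak2, which serves receptors of interferon gamma, interleukin-12 and growth hormone-like cytokines, stood above the others. It lies on chromosome 19 (29251828 to 29313080), has no opposite gene, and had 231, 237, 85 and 145 counts, or 30.3, 33.2, 11.5 and 25.6 TPM. Replicate 3 was lowest. Jak1, the kinase of the interleukin-4 and interleukin-2 receptors, had 34, 23, 17 and 16 counts and 2.23 ± 0.643 TPM (SD, n = 4). Jak1 was below Jak2 in 4 of 4 libraries, with a log2 ratio of -2.94 ± 0.489 (SD, n = 4, exact p = 0.125).

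Jak3, which binds the common gamma chain, had 12, 4, 9 and 8 counts and 1.12 ± 0.419 TPM, and Tyk2, the kinase of the type I interferon and interleukin-12 receptors, had 11, 8, 12 and 6 counts and 0.961 ± 0.196 TPM (SD, n = 4). Jak1 was above both in 4 of 4 libraries, by log2 ratios of 0.61 ± 0.374 over Jak3 and 0.70 ± 0.322 over Tyk2 (SD, n = 4, exact p = 0.125 for each). Jak3 shares 404 bp of exon with Insl3 on its own strand.

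Among the STAT factors, Stat3 and Stat6 were highest and could not be separated. Stat6, the factor of interleukin-4, had 70, 65, 61 and 50 counts, or 10.5, 10.4, 9.42 and 10.1 TPM. Stat3, the factor of interleukin-6 and interleukin-21, had 171, 153, 119 and 157 counts, or 11.9, 11.3, 8.49 and 14.6 TPM. The ranges overlapped, and the log2 ratio of Stat6 over Stat3 was -0.16 ± 0.260 (SD, n = 4, exact p = 0.375). Stat4, the interleukin-12 factor of Th1 cells, had 4, 1, 5 and 3 counts, and it shares 1033 bp of exon with Gm28177 on its own strand. Stat6 was above Stat4 in 4 of 4 libraries (log2 ratio 2.81 ± 0.334, SD, n = 4, exact p = 0.125). Stat2, a factor of type I interferon, had 4, 9, 7 and 4 counts, and Stat3 was above it in 4 of 4 libraries (log2 ratio 2.85 ± 0.435, SD, n = 4, exact p = 0.125).

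The STAT5 genes, which carry the interleukin-2 signal, lie beside Stat3 on chromosome 11. Stat5a (100859351 to 100885169) had 51, 53, 26 and 35 counts and Stat5b (100780731 to 100850724) had 51, 14, 23 and 15. Stat5b had its highest count in replicate 1, above all 3 other libraries. Its log2 ratio over Stat5a was -0.34 ± 0.689 and had no fixed sign (2 of 4 libraries positive, SD, n = 4, exact p = 0.5). The 2 genes are close paralogs, so read pairs from stretches they share cannot be placed with certainty.

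Of the feedback inhibitors, Socs1 and Cish were detected and Socs2 and Socs3 were near 0. Cish encodes CIS, an inhibitor of STAT5 signalling, and had 40, 29, 27 and 25 counts, or 4.12, 3.18, 2.86 and 3.46 TPM. Socs1, an inhibitor of Janus kinases, had 4, 8, 5 and 9 counts on a short gene, or 2.17, 4.62, 2.79 and 6.55 TPM. The order of the 2 genes changed between libraries (log2 ratio of Cish over Socs1 -0.12 ± 0.629, SD, n = 4, exact p = 0.75). Socs2, an inhibitor of growth hormone signalling, had 1, 1, 2 and 1 counts, and Socs3, an inhibitor of gp130 receptors, had 0, 1, 1 and 2. Summed over libraries, Cish was 35.9 times Socs2 per length (exact 95% interval 14.98 to 113) and Socs1 15.4 times Socs3 (5.34 to 60.7), with intervals that cover counting error only. With TPM + 1 the log2 ratios were 2.00 ± 0.207 and 1.92 ± 0.325, positive in 4 of 4 libraries each (SD, n = 4, exact p = 0.125 for each), and these sizes rest on the pseudocount.

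**Figure D2:**
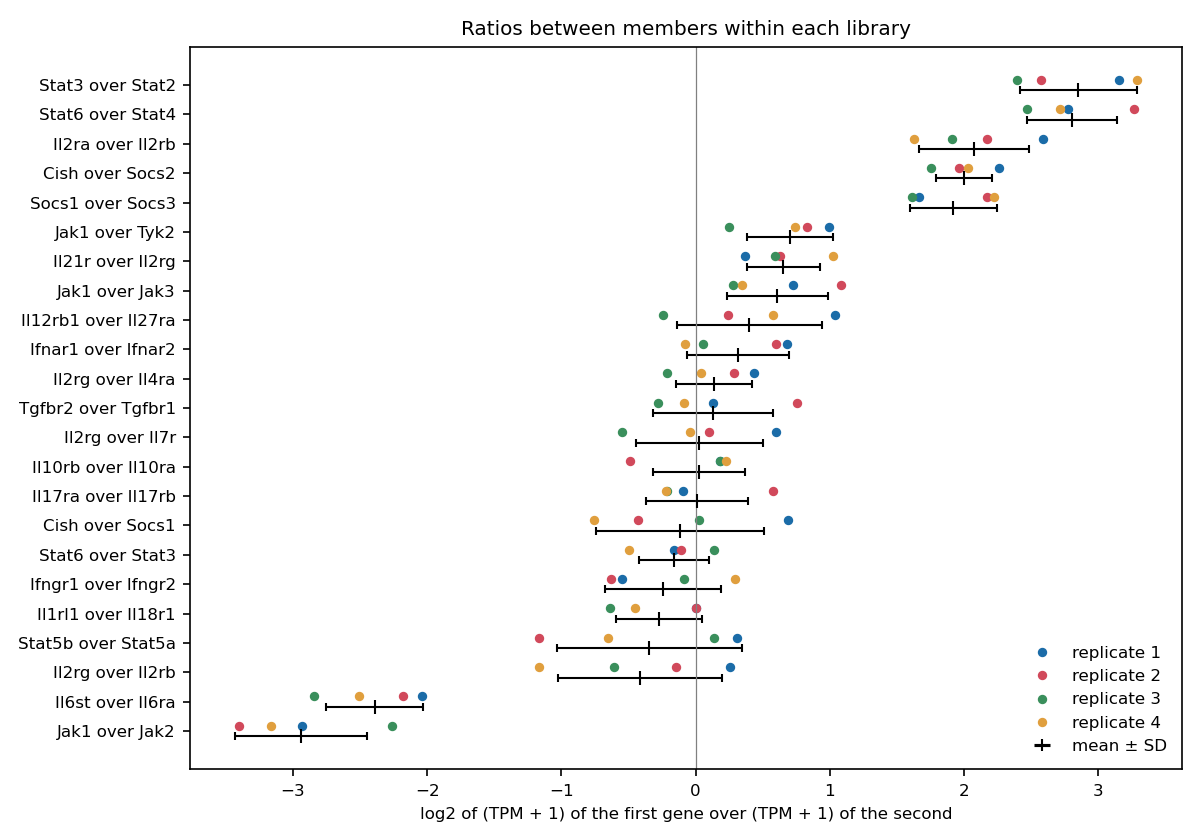
Log2 ratio of TPM + 1 between genes of 23 pairs, with 1 point per library and the mean ± SD (n = 4) beside them; the ratio of Gm44876 over Il4ra (7.90) is not drawn. Points of Jak1 over Jak2 and Il6st over Il6ra lie left of 0 in all 4 libraries, and those of Stat6 over Stat3 fall on both sides of it.

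Of the 24 pairs compared, 11 had the same sign in 4 of 4 libraries and a mean ratio above its SD. The smallest exact p is 0.125 for each pair, so none could pass 0.05, and adjustment for 24 pairs cannot lower it. The other 13 ratios did not exceed their spread.

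The feedback inhibitors are textbook STAT targets, so the promoters of Cish and Socs3 are shown with the motif TTCNNNGAA, the palindrome that STAT5 and STAT3 bind, in capitals. They are 300-base windows from RefSeq on GRCm38.p6, from 250 bases before the RefSeq start site to 50 after it. The window is chr9:107296409-107296708 on the plus strand for Cish and chr11:117969317-117969616 on the minus strand for Socs3. Each lies inside the gene as annotated for counting, Cish at 107296026 to 107302784 and Socs3 at 117966079 to 117970047. None of the bases shown is thus upstream of the gene as counted. In Cish the motif begins at bases 1 and 12, counted from 1 at the start site, and in Socs3 it begins 154 bases before it.
Cish: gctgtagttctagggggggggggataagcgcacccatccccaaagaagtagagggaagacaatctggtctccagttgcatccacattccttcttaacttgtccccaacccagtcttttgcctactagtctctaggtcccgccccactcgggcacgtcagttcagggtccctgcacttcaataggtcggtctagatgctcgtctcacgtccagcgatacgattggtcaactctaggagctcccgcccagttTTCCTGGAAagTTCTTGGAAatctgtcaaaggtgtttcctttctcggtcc
Socs3: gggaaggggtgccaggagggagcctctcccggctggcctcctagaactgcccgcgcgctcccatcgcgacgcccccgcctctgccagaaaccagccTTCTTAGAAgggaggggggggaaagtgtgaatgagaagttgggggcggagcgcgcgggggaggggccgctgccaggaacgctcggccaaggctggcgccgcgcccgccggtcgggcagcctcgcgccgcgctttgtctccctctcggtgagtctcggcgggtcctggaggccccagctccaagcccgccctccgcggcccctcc
Of 36 windows matched to 29 of the 37 genes, 6 (16.7%) hold TTCNNNGAA, against 8.3% of 32851 windows. They belong to Cish, Socs3, Il7r, Il18r1, Ifnar1 and Ifnar2. The longer motif TTCNNNNGAA, the form that STAT6 prefers, is in 4 windows (11.1%, against 6.95%), of Il18r1, Stat2 and Ifngr2. The windows of Il18r1 among them overlap and hold the same match, which is thus counted more than once. Each pattern is its own reverse complement, so 1 search covers both strands, and a match of one spacing is not a match of the other. Cish and Socs3 both carry the shorter motif, and their levels were 3.40 and 0.273 TPM. A match is a description of these letters only.

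The opposite genes held more counts than the pathway gene in every library for 7 of 9 genes (77.8%), against 49.2% of protein-coding genes with an overlap. Where the opposite gene does not code for protein this held for 4 of 4 (Il4ra, Il6ra, Tyk2 and Cish), against 53.6%. These pairs were chosen with earlier results of these data known.

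**Figure D3:**
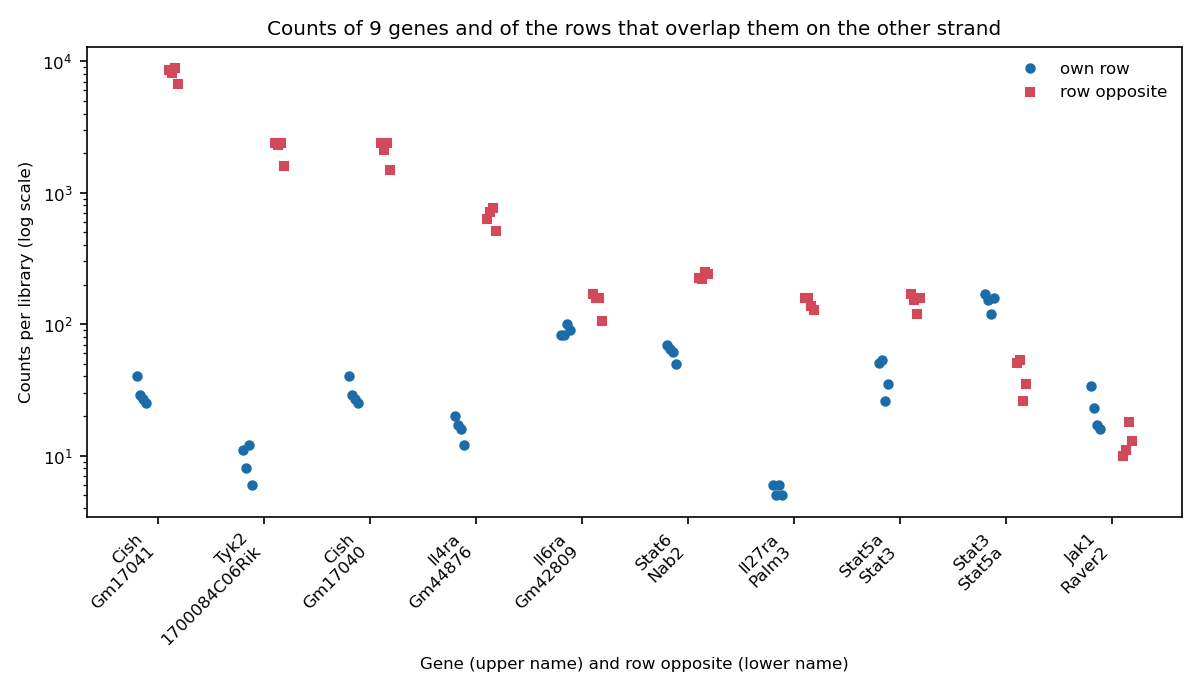
Counts per library (log scale) of 9 pathway genes (circles, left) and of the genes that overlap them on the other strand (squares, right), with 4 libraries each. The squares of Gm17041, 1700084C06Rik, Gm17040 and Gm44876 lie far above the circles of Cish, Tyk2 and Il4ra, while Stat3 lies above Stat5a.

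Cish and Tyk2 had the widest gaps, with shares of the pair that differed by less than their SD. The 40, 29, 27 and 25 counts of Cish stood against 8570, 8108, 8836 and 6739 for Gm17041. All 479 exon bases of Gm17041 lie inside Cish exons, 321 of them in coding sequence. Cish thus held 0.374% ± 0.0667 of the counts of the pair (SD, n = 4), and Gm17041 had a level of 12191 ± 374 TPM, with like values in all 4 libraries. A second opposite gene, the pseudogene Gm17040, shares 261 bp with Cish and had 2396, 2121, 2393 and 1478 counts.

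Tyk2 had 11, 8, 12 and 6 counts, against 2403, 2327, 2379 and 1608 for 1700084C06Rik, which shares 554 of its 750 exon bases with Tyk2. The groups of values do not overlap, and Tyk2 held 0.418% ± 0.0737 of the counts of the pair (SD, n = 4). Gm44876, with 631, 711, 764 and 511 counts, stood over Il4ra with 20, 17, 16 and 12. Its log2 ratio of TPM + 1 over Il4ra was 7.90 ± 0.213, with Gm44876 above Il4ra in all 4 (SD, n = 4, exact p = 0.125). Of the 571 bp that the 2 share, 61 are coding in Il4ra, 97 are UTR and 413 lie in other exons. Gm44876 had the highest level of the 37 genes, 705 ± 69.1 TPM, above 99.8% of protein-coding genes.

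Il6ra had the smallest gap of the 4, with 82, 82, 101 and 90 counts against 169, 159, 159 and 105 for Gm42809, so that it held 37.9% ± 6.09 of the counts of the pair (SD, n = 4). The 242 shared bases lie at the start of Il6ra, 85 of them in coding sequence.

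**Figure D4:**
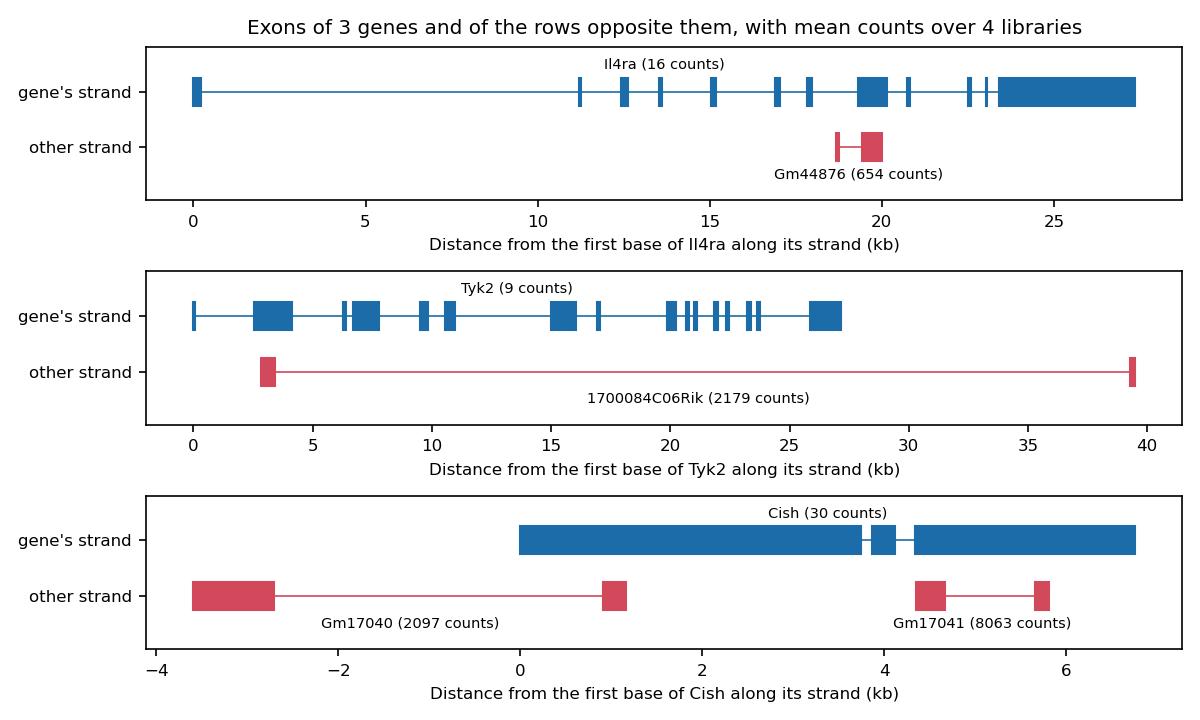
Exons (boxes) of Il4ra, Tyk2 and Cish along their own strand (blue, above) and of the genes opposite them (red, below), by distance in kb from the first base of each gene, with mean counts over 4 libraries. Gm44876 and Gm17041 lie inside the gene they overlap, and 1700084C06Rik and Gm17040 extend beyond it.

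The other overlaps are with protein-coding neighbours and are short. Stat6 shares 40 bp with Nab2, a corepressor of EGR factors, and its 70, 65, 61 and 50 counts stood against 223, 219, 250 and 239. Il27ra shares 2 bp with Palm3, and its 6, 5, 6 and 5 counts stood against 157, 158, 138 and 128. Stat5a and Stat3 meet end to end with 72 bp shared, where Stat5a held 21.2% ± 3.79 of the counts of the pair (SD, n = 4). Jak1 shares 4 bp with Raver2, which had 10, 11, 18 and 13 counts, and Jak1 was higher in 3 of 4 libraries.

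Variation between replicates was tested on 5064 genes with edgeR, by how far counts scatter beyond genes of like abundance. Across all of them 23 (0.454%) passed an adjusted p of 0.05. The filter on low counts left 14 of the 37 genes in the test, so nothing is said of the other 23. Jak2 was the 1 gene that passed (edgeR goodness of fit, adjusted p = 0.00249), with 101.7, 112.2, 38.6 and 81.2 CPM in replicates 1 to 4. Stat5b, with 51, 14, 23 and 15 counts, did not (edgeR unadjusted p = 0.00720, adjusted p = 0.435).

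The call of Jak2 rested on replicate 3 and on the genes it was fitted with. It held with DESeq2 size factors (edgeR adjusted p = 0.00443) and with a common dispersion for all genes (0.000726). It also held without replicate 1 (0.00433) and without replicate 4 (0.000919). DESeq2 called Jak2 a dispersion outlier. In other settings Jak2 did not pass. Its edgeR adjusted p was 1.00 without replicate 3, 0.0671 without replicate 2, 0.0775 with no filter on low counts and 0.662 when only genes without an opposite gene were fitted, a setting chosen after the data were seen. Genes without an opposite gene held 7.53%, 6.88%, 5.48% and 6.67% of all counts in replicates 1 to 4, lowest in replicate 3. The 36 pathway genes other than Gm44876 summed to 388, 352, 289 and 378 CPM once Jak2 was left out, again lowest in replicate 3. The part of this shift in the Jak2 values was not tested beyond these fits.

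**Figure D5:**
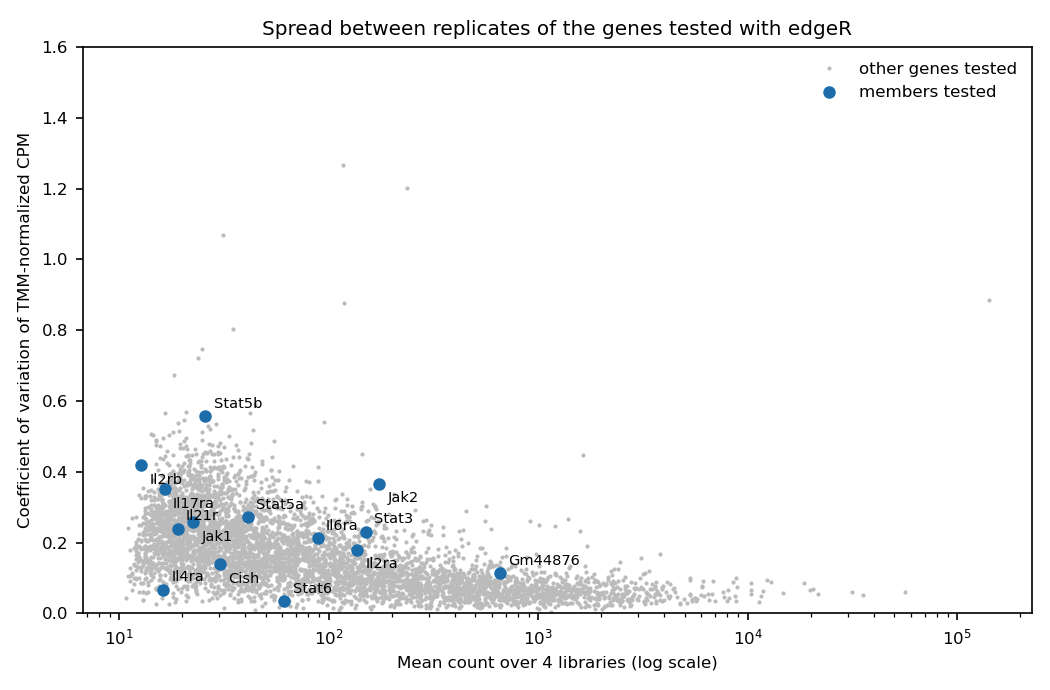
Coefficient of variation of TMM-normalized CPM over 4 libraries against mean count (log scale) for the 5064 genes tested with edgeR, with the 14 pathway genes tested in blue. Jak2 lies above most genes of its abundance, and Stat6 near the bottom.

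The coefficient of variation was 0.0340 for Stat6 and 0.0668 for Il4ra. Counting error alone gives 0.128 and 0.248 at their mean counts, so these low values do not show that either gene was steady. Cish had 0.138, also below the 0.182 that counting error alone gives, so the same limit holds for it. Il2ra had 0.180, against 0.0855 from counting error alone. Stat5b (0.556) was the highest of the 14.

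Other genes of the pathway came from 4 lists. Of 15 further receptor chains 1 reached 1 TPM in every library, Il12rb2, with 60, 67, 55 and 48 counts. It shares 1519 bp with Serbp1 on the other strand, which had 575, 381, 369 and 327. Of the 15, 12 had at most 3 counts in each library. Of 20 ligands 6 reached 1 TPM in every library, led by Il2 with 158, 133, 71 and 112 counts, Il4 with 38, 27, 37 and 24, and Il27 with 23, 21, 23 and 17. Il27, the ligand of Il27ra, shares 103 bp with Apobr on the other strand. Of the 20 ligands, 9 had 0 counts in all libraries. The background for 1 TPM in every library is again 21.8% of protein-coding genes. No background is given for at most 3 counts or for 0 counts. The median protein-coding gene was at 0 in each library.

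Of 14 phosphatases and other regulators 7 reached 1 TPM in every library. The highest were Ptpn6, the phosphatase SHP-1 that dephosphorylates Janus kinases, at 13.3 ± 2.80 TPM, Ptprc, the phosphatase CD45, at 7.24 ± 1.88, and Sh2b3, an adaptor that restrains JAK2, at 5.36 ± 1.15 (SD, n = 4). Ptpn6, with 65, 55, 38 and 47 counts, shares 195 bp with Gm20531, which had 3654, 3553, 3929 and 2775. Sh2b3, with 29, 40, 35 and 36, shares 99 bp with Atxn2, which had 542, 465, 459 and 304. Both thus held far fewer counts than the gene on the other strand. Of 14 genes known to be driven by STAT5 or STAT6, 10 reached it, with the AP-1 partner Batf at 27.8 ± 2.32, the lymphoid factor Irf4 at 15.3 ± 2.54 and the repressor Gfi1 at 11.1 ± 1.22 TPM (SD, n = 4). Gfi1, with 60, 49, 45 and 42 counts, shares 101 bp with A430072P03Rik, which had 329, 328, 322 and 200. Of the STAT-driven genes 7 have an opposite gene, and it held more counts in every library for 7 of 7. The same held for 2 of 2 further receptor chains, 1 of 4 ligands and 2 of 3 regulators, against 49.2% of protein-coding genes with an overlap. The median of the mean levels was 6.24 TPM over the STAT-driven genes and 1.35 over the regulators. It was 0.178 over the ligands and 0.132 over the further receptor chains. A mean level of 0.132 TPM lay above 50.9% of all protein-coding genes, and 0.186 TPM above 53.5%. The medians of the ligands and the further receptor chains thus lay near the middle of all protein-coding genes. With edgeR, 0 of the 21 genes of these 4 lists that were tested varied between replicates at an adjusted p of 0.05. At an unadjusted p under 0.05 there were 3 of the 21, beside 260 of all 5064 genes, and DESeq2 called 0 of the 21 dispersion outliers, beside 28 of all genes.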

How the data were processed

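RNA from 4 Th2 libraries of 1 group was measured as read pairs per gene. The deposited values are raw counts, and the authors made them, per the file headers, with featureCounts 1.4.6-p4 at strand setting 1, requiring both ends of a pair and summing exons by gene on GENCODE M13 (mm10). The tables also give an exon length per gene. The aligner's version is not given in the sources used here. Nothing was normalized before deposit.

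TPM was computed from count and exon length, and log2 ratios used a pseudocount of 1 TPM. Gene names came from GENCODE M21, where 224 genes had no match and kept their IDs. Overlaps between genes came from the exon coordinates in the tables. Ratios were tested over 4 libraries with an exact two-sided sign-flip permutation test, whose smallest p is 0.125. Variation between replicates was tested with edgeR 4.0.16 (intercept-only negative binomial goodness of fit, trended dispersion, TMM, filterByExpr, Benjamini-Hochberg adjustment over 5064 genes) in R 4.3.3, with DESeq2 1.42.0 as an alternative. Tested on simulated data with 200 changed genes among 4867 tested, this test recovered 20% of 2-fold and 99% of 4-fold changes. It made 1 false call there, and 0 of 4864 with none changed. The simulation used 1 dispersion for all genes and changed 1 library per gene, at mean counts of at least 20. Il2rb, Il4ra, Il17ra and Il21r were tested at lower mean counts (12.75, 16.25, 16.5 and 19), so the recovery does not cover them. The sign-flip p-value asks whether a ratio between genes is centred on 0 over these libraries. The edgeR p-value measures scatter between these libraries beyond that of genes of like abundance. Intervals are exact binomial (Clopper-Pearson) at 95%. Tables were handled in Python 3.11.15 with pandas 2.3.3 and scipy 1.17.1.

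The 37 genes and all further lists and pairs were chosen with earlier results of these data known. All 37 genes are named, with every gene opposite them and at most the 3 highest of each further list among those at 1 TPM in every library. The B cell marker list as a whole is not reported here.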

Additional observations from a re-analysis of the deposited data

Results flagged for a closer look

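Of 61 values checked, 5 had 1 library far from the other 3, where chance gives about 1 in 20 for independent normal values. Many of these values are small counts, and the ratios reuse the levels, so that rate need not hold here. The level of Il2rb was 5.42 TPM in replicate 4, the library with the most ribosomal RNA, above 2.61 to 3.03 in the others. The level of Il21r was 2.66 TPM in replicate 3, below 4.57 to 4.81 in the others. The level of Il1rl1 was 0.0986 TPM in replicate 3, which is 1 count against 0 in the others. The log2 ratio of Il10rb over Il10ra was -0.49 in replicate 2, where Il10rb had 0 counts. The log2 ratio of Il17ra over Il17rb was 0.58 in replicate 2 and below 0 in the others.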

How the results depend on the processing

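The 11 log2 ratios that exceeded their spread kept their direction under every alternative run. Without division by length (TMM-normalized CPM), 3 ratios changed sign: Il2rg over Il4ra to -0.95, Il2rg over Il7r to -0.32 and Cish over Socs1 to 1.93. Il10rb over Il10ra was -0.097 with a pseudocount of 0.1 TPM and -0.12 with each gene at 3 counts or more. Leaving out 1 replicate gave -0.16 to 0.22 for Il2rg over Il7r, -0.041 to 0.20 for Il10rb over Il10ra, -0.078 to 0.27 for Tgfbr2 over Tgfbr1, -0.18 to 0.090 for Il17ra over Il17rb and -0.39 to 0.098 for Cish over Socs1. The 23 genes that varied between replicates became 15 with no filter on low counts, 7 to 20 with 1 replicate left out, and 3 among 1793 genes without an opposite gene, an alternative chosen after the data were seen. The cause was not tested. Class medians moved to 1.38 TPM for receptor chains and 3.25 for kinases as a mean of log2(TPM + 1), and, without genes that have an opposite gene, to 13.1 for kinases, 0.8293 for STAT factors and 0.291 for feedback inhibitors. Depth limits the 6 genes at or under 3 counts in each library. No paired analysis was possible because there was 1 group.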
